A study of Rattus norvegicus with 9 samples.

Results

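The 10 genes below are acute-phase and secreted plasma protein genes, followed in the liver of rats with fibrosis induced by carbon tetrachloride (CCl4): A2m, Orm1, Hp, Hpx, Lbp, Crp, Lcn2, Itih4, Alb and Ttr. They were chosen by name, with earlier results of these data known, so counts among them are descriptions. These 10 genes were read by 12 of the 31042 probe sets tested, where a probe set is a group of short oligonucleotides on the array that reads one transcript, and 14377 genes had a probe set naming a single symbol. A gene with 2 probe sets was read by the one with the higher mean signal. Gene Ontology, as listed in the deposited table, annotates 6 of the 10 (A2m, Orm1, Hp, Lbp, Crp and Itih4) with the acute-phase response, and the other 4 are secreted plasma proteins without that term in the table.

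The acute-phase response is the change in the plasma proteins made by the liver during inflammation or tissue damage. Interleukin-6, acting through its receptor and the transcription factor STAT3, and interleukin-1, acting through NF-kB and C/EBP factors, raise the positive acute-phase proteins in hepatocytes, whereas the negative ones, with albumin and transthyretin as the textbook examples, are made in smaller amounts. In the rat, alpha-2-macroglobulin is a strongly inducible member, while several others are already made in large amounts by a healthy liver.

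The study asked whether rottlerin, an activator of large-conductance, calcium-activated potassium (BK) channels, changes CCl4-induced liver fibrosis. Liver RNA of 9 male Sprague–Dawley rats was measured, 1 array per rat and 3 rats per group. Rats of the CCl4 group received intraperitoneal CCl4 in olive oil for 8 weeks, rats of the CCl4+Rot group received the same CCl4 and, from week 2, rottlerin at 2.5 mg/kg body weight, and rats of the vehicle group received vehicle, whose composition is not given in the sources used here, nor are the ages of the rats. The arrays carry the animal numbers 3, 4 and 5 (vehicle), 1, 2 and 3 (CCl4) and 4, 5 and 6 (CCl4+Rot), which are used below as replicate numbers. The tissue was whole liver, in which hepatocytes, immune cells and matrix-producing stellate cells all contribute RNA.

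The values are log2 signals, scaled by the authors to a common trimmed mean of 500 on every array. CCl4 replicate 3 stood apart: 12714 probe sets were called present on it, against 15550 to 16849 on the other 8 arrays, and its median signal over all probe sets was 7.81, against 6.79 to 7.01. All 13 hepatocyte markers measured were called present on every array. All 12 probe sets of the 10 genes were also called present on every array, so none of the values of these 10 genes is limited by detection.

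The sequences upstream of these genes are shown first, because the factors that drive the response act there. RefSeq promoters of the rat genome build GRCr8, from 250 bases before to 50 bases after the transcription start, were matched for 7 of the 10 genes (Orm1, Hpx, Crp, Lcn2, Itih4, Alb and Ttr). The build behind the deposited table is not given in the sources used here. Those of 4 genes are printed 5′ to 3′ on the gene's strand: the inducible Lcn2, the abundant positive proteins Orm1 and Itih4, and the negative protein Alb. Capitals mark letters that match one of 4 motifs searched on both strands. Lcn2 lies at chr3:36081731-36082030 (minus strand), Orm1 at chr5:81788259-81788558 (plus), Itih4 at chr16:6086735-6087034 (plus) and Alb at chr14:17906930-17907229 (minus).
Lcn2: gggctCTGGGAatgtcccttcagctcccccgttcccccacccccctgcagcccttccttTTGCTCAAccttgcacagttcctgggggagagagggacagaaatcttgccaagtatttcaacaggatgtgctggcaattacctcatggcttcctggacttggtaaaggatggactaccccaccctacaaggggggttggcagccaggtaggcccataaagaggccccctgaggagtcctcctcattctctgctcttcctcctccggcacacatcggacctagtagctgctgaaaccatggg
Orm1: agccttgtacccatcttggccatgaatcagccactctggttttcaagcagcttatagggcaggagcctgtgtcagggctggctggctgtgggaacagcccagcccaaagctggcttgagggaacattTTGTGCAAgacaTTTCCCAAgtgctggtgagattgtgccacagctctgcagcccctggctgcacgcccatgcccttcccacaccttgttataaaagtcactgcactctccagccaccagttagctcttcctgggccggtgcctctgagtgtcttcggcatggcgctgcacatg
Itih4: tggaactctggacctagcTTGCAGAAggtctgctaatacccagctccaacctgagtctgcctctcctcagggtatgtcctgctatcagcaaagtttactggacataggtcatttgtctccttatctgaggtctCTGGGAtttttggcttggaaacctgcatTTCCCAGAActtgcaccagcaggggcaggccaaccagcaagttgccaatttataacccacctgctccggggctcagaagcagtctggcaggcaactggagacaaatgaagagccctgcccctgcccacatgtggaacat
Alb: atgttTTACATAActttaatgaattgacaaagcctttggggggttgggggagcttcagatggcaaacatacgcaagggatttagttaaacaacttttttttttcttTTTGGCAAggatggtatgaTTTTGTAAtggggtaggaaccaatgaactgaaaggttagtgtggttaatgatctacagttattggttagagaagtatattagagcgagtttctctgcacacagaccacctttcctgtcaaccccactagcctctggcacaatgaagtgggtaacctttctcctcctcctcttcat

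The C/EBP motif TTNNGNAA was found in 6 of the 7 promoters, all but that of Ttr, and in 41.3% of 33469 promoters of the same length. In Orm1 it occurred at positions -123 and -111 relative to the transcription start, in Alb at -245, -144 and -125, and in Lcn2 at -191. The STAT motif TTCNNNGAA was found in Itih4 alone, at -89, and in 8.87% of all promoters. The IL-6 response element CTGGGA was found in Crp, Itih4, Lcn2 and Ttr and in 30.3% of all promoters. One of its Itih4 matches, on the reverse strand, overlaps the STAT match. The NF-kB motif (GGG, a pair of any bases, then TTTCC) was found in Ttr alone, at -209, and in 1.53% of all promoters. The motifs are short, their matches describe letters and not bound factors, and they do not separate Lcn2 from the members with small differences below.

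Among the 10 genes, A2m, Lbp and Lcn2 were higher in all 3 CCl4-treated rats than in any vehicle-treated rat, with mean differences of 3.17-fold to 5.01-fold. The other 7, Orm1, Hp, Hpx, Crp, Itih4, Alb and Ttr, differed between the same groups by -0.24 to 0.12 on the log2 scale, and their groups overlapped. With rottlerin, A2m, Lbp and Lcn2 lay above every vehicle value, and all 10 genes overlapped between the CCl4+Rot and CCl4 groups. A call needed a limma p below 0.05 after Benjamini-Hochberg adjustment and at least 1.5-fold, and 0 of the 10 reached it in any comparison. At this threshold 0% of all probe sets were called between CCl4 and vehicle, 0.00322% between CCl4+Rot and CCl4, and 0.0258% between CCl4+Rot and vehicle. Without adjustment, 3 of the 10 had p below 0.05 and were higher with CCl4 than with vehicle, against 8.64% of all probe sets and 7.18% of those called present on all 9 arrays. With 3 arrays per group, an exact permutation test of a single gene cannot go below a two-sided p of 0.1. In whole liver, fewer cells of a type and less RNA per cell cannot be told apart.

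**Figure D1:**
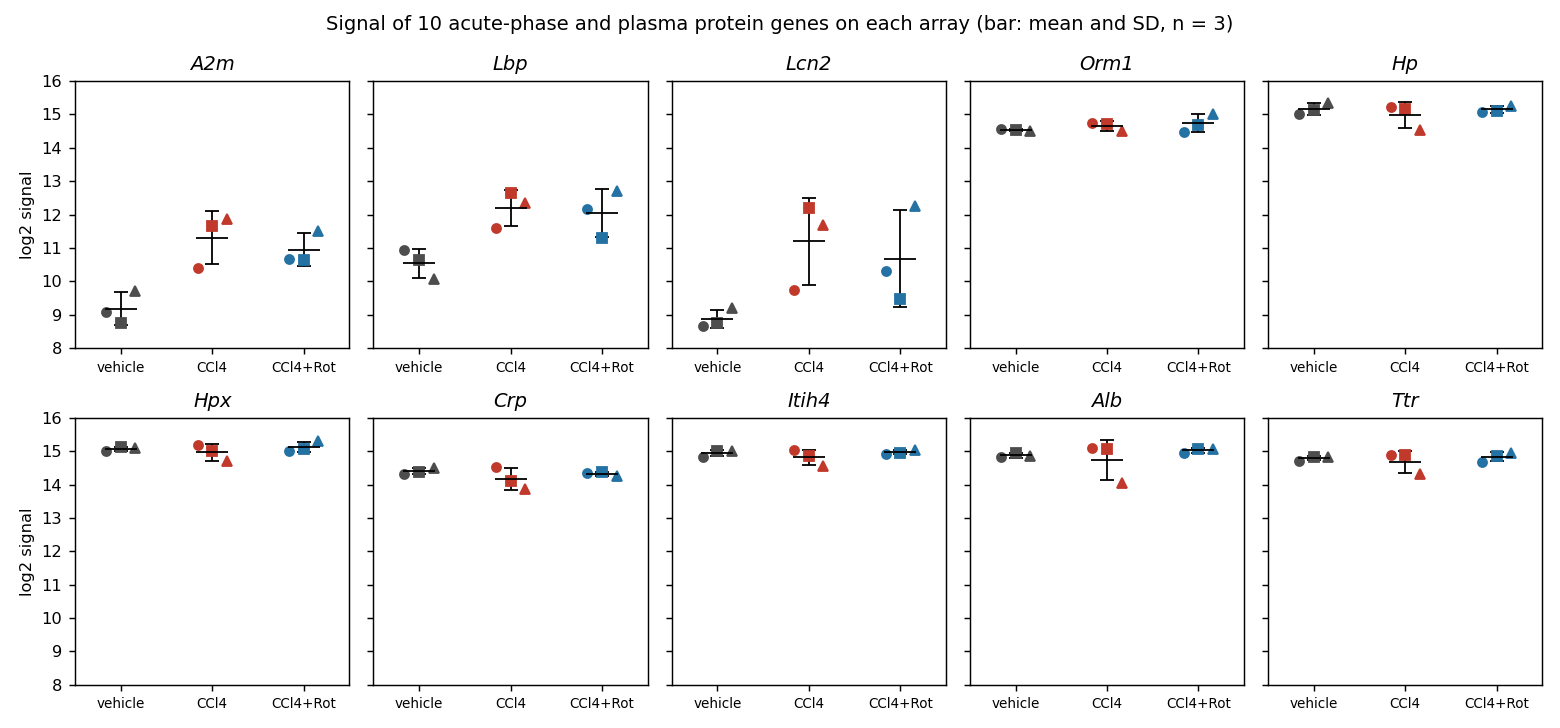
Log2 signal of each of the 10 genes (y axis) on each array, by group (x axis, n = 3 rats each). Points are single rats, drawn in rising order of the animal number as circle, square and triangle, and bars give mean and SD. A2m, Lbp and Lcn2 are higher in every CCl4 and CCl4+Rot rat than in the vehicle rats, and the other 7 stay between 13.87 and 15.34 on all arrays.

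A2m encodes alpha-2-macroglobulin, a plasma protein that traps proteases and binds cytokines. Its log2 signals were 9.08, 8.76 and 9.72 in vehicle replicates 3, 4 and 5. In CCl4 replicates 1, 2 and 3 they were 10.40, 11.65 and 11.86. In CCl4+Rot replicates 4, 5 and 6 they were 10.66, 10.65 and 11.51. The lowest CCl4 value, that of replicate 1, and all CCl4+Rot values lay above the highest vehicle value. The group means were 9.18 ± 0.488, 11.31 ± 0.788 and 10.94 ± 0.494 (SD, n = 3). A2m was thus 4.35-fold higher with CCl4 than with vehicle, a log2 change of 2.12 with a 95% interval of 1.05 to 3.19 (limma, unadjusted p = 0.00202, adjusted p = 0.218). When limma estimated the spread robustly and let it depend on the signal, the adjusted p of A2m was 0.0413, and it was the one member called. In that fit 0.693% of all probe sets were called higher. Across the settings other than leaving out arrays, its adjusted p ranged from 0.0413 to 0.451. The log2 change of A2m between CCl4+Rot and vehicle was 1.76 (0.68 to 2.83, adjusted p = 0.324). Between CCl4+Rot and CCl4 it was -0.37 (-1.44 to 0.71, adjusted p = 0.857), an interval from 0.369-fold to 1.63-fold. The probe set of A2m also names a second locus, LOC100911545, and the signal cannot be divided between them.

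Lbp encodes the lipopolysaccharide-binding protein, which hands bacterial lipopolysaccharide to CD14 and the TLR4 receptor complex. Its log2 signals were 10.93, 10.63 and 10.08 in the vehicle group. They were 11.61, 12.66 and 12.35 in the CCl4 group. They were 12.17, 11.29 and 12.70 in the CCl4+Rot group. The 3 CCl4 rats and the 3 CCl4+Rot rats lay above the highest vehicle rat, and the CCl4 and CCl4+Rot groups overlapped. The means were 10.54 ± 0.431, 12.21 ± 0.537 and 12.05 ± 0.714 (SD, n = 3). Lbp was 3.17-fold higher with CCl4 than with vehicle, a log2 change of 1.66 (0.65 to 2.68, unadjusted p = 0.00575, limma adjusted p = 0.249). The log2 change between CCl4+Rot and vehicle was 1.51 (0.49 to 2.53, adjusted p = 0.383). Between CCl4+Rot and CCl4 it was -0.15 (-1.17 to 0.86, adjusted p = 0.938), and 0.23 without CCl4+Rot replicate 5.

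Lcn2 encodes lipocalin 2, which binds the siderophores with which bacteria take up iron, and is made by hepatocytes and by neutrophils. Its log2 signals were 8.67, 8.75 and 9.19 in the vehicle group. They were 9.73, 12.18 and 11.68 in the CCl4 group. They were 10.31, 9.46 and 12.27 in the CCl4+Rot group. The vehicle rats lay close together, whereas CCl4 replicate 1 and CCl4+Rot replicate 5 lay only slightly above them and the highest rats of both groups lay far above. The means were 8.87 ± 0.279, 11.20 ± 1.30 and 10.68 ± 1.44 (SD, n = 3), and in both CCl4-treated groups its spread was the widest of the 10 genes. Lcn2 was 5.01-fold higher with CCl4 than with vehicle, a log2 change of 2.33 (0.38 to 4.27, unadjusted p = 0.0248, limma adjusted p = 0.341). The unadjusted p was 0.0597 to 0.0852 when vehicle replicate 3 or 4 or CCl4 replicate 2 or 3 was left out. The log2 change between CCl4+Rot and vehicle was 1.81 (-0.13 to 3.75, unadjusted p = 0.0637, adjusted p = 0.642) and dropped to 1.01 without CCl4+Rot replicate 6. Between CCl4+Rot and CCl4 it was -0.52 (-2.46 to 1.42, adjusted p = 0.889), an interval from 0.182-fold to 2.68-fold. That change was -1.31 when CCl4+Rot replicate 6 was left out and -1.25 when CCl4 replicate 1 was, and it turned to 0.095 without CCl4+Rot replicate 5.

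The 3 genes ranked the rats of a group in similar ways. CCl4 replicate 1 had the lowest signal of its group for A2m, Lbp and Lcn2, and the highest for the other 7 genes. CCl4+Rot replicate 6 had the highest of its group for all 3, and for 9 of the 10 genes, all but Crp. On that array the Gapdh control read 0.37 higher (log2) at the 3′ than the 5′ end, against -0.14 to 0.054 on the others. For the beta-actin control the difference was 1.45, against 1.06 to 1.44. The part of this in the values of that array was not tested. CCl4+Rot replicate 5 was the lowest of its group for all 3, although its A2m signal differed from that of replicate 4 by little. The vehicle group held no such shared order, since A2m and Lcn2 were highest in replicate 5, where Lbp was lowest. With groups of 3 these orders are given as a description and were not tested. Without CCl4 replicate 3, the array that stands apart, the log2 changes between CCl4 and vehicle were 1.84 for A2m, 1.59 for Lbp and 2.08 for Lcn2 (limma adjusted p = 0.297, 0.345 and 0.481).

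Counts of groups that do not overlap rest on the same values as the p-values and are not separate support. A2m, Lbp and Lcn2 were the 3 of 10 genes whose CCl4 values all lay above the vehicle values, against 11.1% of all probe sets and 11.2% of those present on all arrays. The same 3 genes lay above vehicle without overlap in the CCl4+Rot group, against 11.9% and 15.4%. A2m and Lbp had an unadjusted p below 0.05 there, against 5.63% and 6.41% of probe sets that were higher. No member had p below 0.05 between CCl4+Rot and CCl4, against 6.63% of all probe sets in either direction and 4.26% of those present on all arrays, and none was without overlap, against 11.6%. The methods' t-test, without adjustment and with 1.5-fold, called A2m, Lbp and Lcn2 higher with CCl4 than with vehicle, against 4.07% of all probe sets, and A2m and Lbp with CCl4+Rot, against 4.95%. The CCl4 comparison with vehicle and that of CCl4+Rot with vehicle share the vehicle rats. Over the 10 genes the median log2 change was -0.11 between CCl4 and vehicle, 0.15 between CCl4+Rot and CCl4 and 0.10 between CCl4+Rot and vehicle, and over all genes it was 0.13, -0.05 and 0.03. Without CCl4 replicate 3 the first 2 medians turned sign, to 0.14 and -0.05 for the 10 genes, and those over all genes were 0.03 and 0.01.

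**Figure D2:**
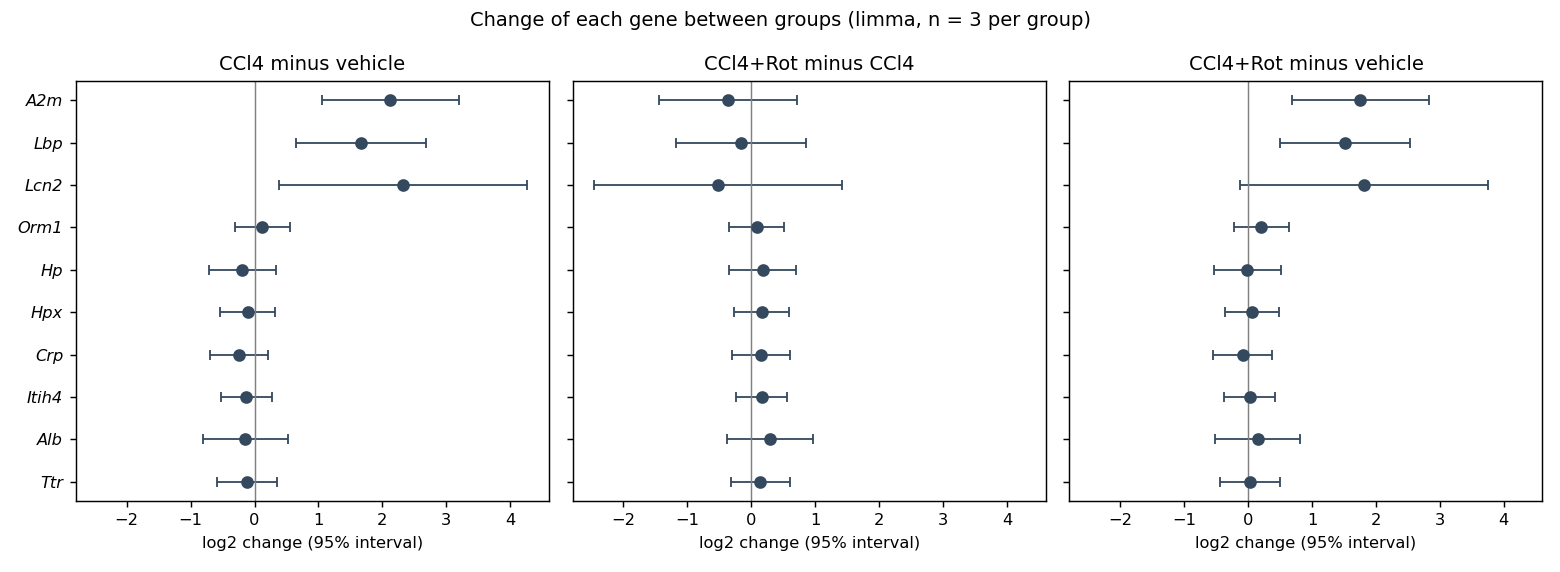
Log2 change of each gene between groups with its 95% interval from limma (x axis, 3 rats per group), 1 panel per comparison. The intervals of A2m and Lbp lie above 0 in both comparisons with vehicle and that of Lcn2 in the comparison of CCl4 with vehicle, and every interval between CCl4+Rot and CCl4 spans 0.

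Orm1, Hp, Hpx, Crp and Itih4 are positive acute-phase or heme- and hemoglobin-handling proteins of the plasma. Orm1, orosomucoid, binds drugs and steroids. Its log2 signals were 14.56, 14.53 and 14.49 in vehicle rats, 14.76, 14.70 and 14.50 in CCl4 rats, and 14.48, 14.69 and 15.02 in CCl4+Rot rats. Its highest signal was that of CCl4+Rot replicate 6. The log2 change was 0.12 between CCl4 and vehicle (-0.31 to 0.55, limma adjusted p = 0.804).

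Hp, haptoglobin, captures free hemoglobin. It gave 15.01, 15.14 and 15.34 in vehicle rats, 15.23, 15.16 and 14.53 in CCl4 rats, and 15.06, 15.12 and 15.27 in CCl4+Rot rats. Replicate 3 of the CCl4 group was the one low array, and the other 8 lay between 15.01 and 15.34. Hpx, hemopexin, captures free heme. It gave 15.00, 15.11 and 15.08 with vehicle, 15.19, 15.00 and 14.69 with CCl4, and 15.01, 15.06 and 15.31 with CCl4+Rot. The log2 changes between CCl4 and vehicle were -0.19 for Hp (-0.72 to 0.33) and -0.10 for Hpx (-0.53 to 0.32). Both genes were again lowest in CCl4 replicate 3, and without it their log2 changes were both 0.03.

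Crp, C-reactive protein, is a pentraxin that binds microbes and damaged cells. It gave 14.33, 14.38 and 14.50 in vehicle rats, 14.52, 14.10 and 13.87 in CCl4 rats, and 14.33, 14.36 and 14.25 in CCl4+Rot rats. CCl4 replicates 2 and 3 lay below every other rat, and CCl4 replicate 1 above every other, for a log2 change of -0.24 (-0.70 to 0.22, limma adjusted p = 0.634) that was -0.093 without CCl4 replicate 3. Itih4, an inter-alpha-trypsin inhibitor heavy chain, gave 14.82, 15.00 and 15.00 with vehicle, 15.02, 14.84 and 14.56 with CCl4, and 14.93, 14.96 and 15.03 with CCl4+Rot. Its log2 change between CCl4 and vehicle was -0.13 (-0.53 to 0.27), and -0.01 without CCl4 replicate 3.

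Alb and Ttr stand for the negative side of the response. Alb encodes albumin, the main carrier and osmotic protein of plasma. Its signals were 14.81, 14.95 and 14.86 in vehicle rats, 15.10, 15.06 and 14.04 in CCl4 rats, and 14.94, 15.06 and 15.07 in CCl4+Rot rats. The first 2 CCl4 rats lay above every vehicle rat and the other lay below all 8 other rats, by 0.77. The log2 change between CCl4 and vehicle was -0.14 (-0.81 to 0.53, limma adjusted p = 0.856) and became 0.20 without CCl4 replicate 3 (adjusted p = 0.609). The second probe set of Alb gave -0.03, with 13.47 on CCl4 replicate 3 as its lowest value.

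Ttr encodes transthyretin, a carrier of thyroxine and of retinol-binding protein. Its signals were 14.71, 14.84 and 14.83 in vehicle rats, 14.88, 14.87 and 14.30 in CCl4 rats, and 14.68, 14.86 and 14.94 in CCl4+Rot rats. CCl4 replicate 3 was again the lowest array, and the groups overlapped. The log2 change was -0.11 between CCl4 and vehicle (-0.58 to 0.36, limma adjusted p = 0.838). A second probe set that names Ttr also names Mt1a and LOC100362769, gave the log2 change -0.11 as well, and was not read as Ttr.

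The 7 genes differed between CCl4+Rot and CCl4 by 0.08 to 0.29 on the log2 scale, and between CCl4+Rot and vehicle by -0.09 to 0.20. The 95% intervals, joined over the 7 genes, ran from 0.569-fold to 1.47-fold between CCl4 and vehicle, from 0.768-fold to 1.95-fold between CCl4+Rot and CCl4, and from 0.686-fold to 1.76-fold between CCl4+Rot and vehicle. In both comparisons with vehicle, changes as large as those of A2m, Lbp and Lcn2 lie outside these intervals. CCl4 replicate 3 was the lowest of the 9 arrays for 6 of the 7 genes, all but Orm1. The 200 probe sets with a mean log2 signal over 14 had a median of 14.10 on that array and of 14.47 to 14.65 on the others, and its highest signal was 15.09 against 15.43 to 15.62, so the low values were shared by bright probe sets in general. The part of the array's scale in the 6 low values was not tested.

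The signals of the 7 genes lay 0.21 to 1.39 below the highest signal on the same array. Among the 200 brightest probe sets, 0 were higher and 21 lower with CCl4 at an unadjusted limma p below 0.05, and 7% differed by at least 1.5-fold in either direction. Of the 3203 probe sets with a mean log2 signal of 10 to 12, where A2m, Lbp and Lcn2 lie, 150 were higher and 347 lower at that p, and 10.9% differed by at least 1.5-fold. The share of differences of this size was thus smaller near the top of the signal range, and the part of that in the values of Orm1, Hp, Hpx, Crp, Itih4, Alb and Ttr was not tested.

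**Figure D3:**
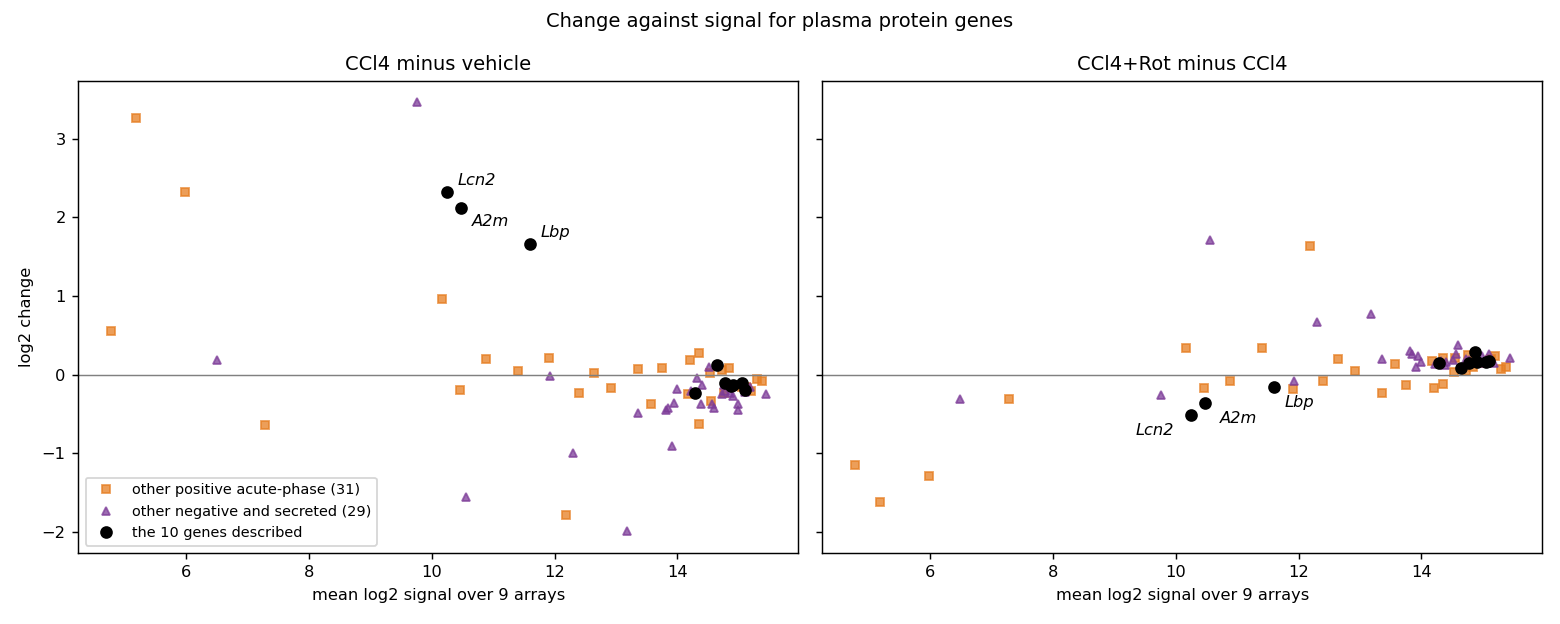
Log2 change (y axis) against mean log2 signal over the 9 arrays (x axis) for the 10 genes (black), 31 other positive acute-phase genes (squares) and 29 other negative acute-phase or secreted plasma protein genes (triangles), in 2 comparisons. The 32 squares and triangles with a mean signal over 14 lie between -0.62 (Apcs) and 0.28 in the CCl4 panel and between -0.17 and 0.37 in the other, while Lcn2, A2m and Lbp lie at 2.33, 2.12 and 1.66 between CCl4 and vehicle.

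Other genes of the same kind were read from lists. All lists below were chosen with earlier results of these data known, so counts from them are descriptions. Of 41 further positive acute-phase genes, 31 were measured and 0 were called by limma in any comparison. At an unadjusted p below 0.05, 1 was higher and 1 lower with CCl4 than with vehicle, where 9.49% of all 14377 genes were higher and 4.01% lower. The median log2 change was -0.05, which turned to 0.09 after quantile normalization and to 0.08 without CCl4 replicate 3. The fibrinogen chains Fga, Fgb and Fgg, complement C3 and the copper carrier Cp, named after their values were seen because they are textbook positive proteins, gave log2 changes of -0.17, -0.05, -0.08, -0.21 and 0.09. Without CCl4 replicate 3 these were -0.0065, 0.064, 0.063, -0.022 and 0.19, so that the signs of Fgb and Fgg turned. All 5 have mean signals over 14. The widest difference among the listed plasma proteins of that brightness was that of the pentraxin Apcs, at -0.62 (limma adjusted p = 0.496).

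Serpina3m, a serpin of the protease inhibitor family, was the one gene of that list that the naming rule selected. It gave 13.34, 13.49 and 11.67 in vehicle rats, 11.11, 11.12 and 10.91 in CCl4 rats, and 13.57, 11.59 and 12.87 in CCl4+Rot rats. All CCl4 rats lay below the other 6. The log2 change was -1.79 between CCl4 and vehicle (unadjusted p = 0.0211, limma adjusted p = 0.327) and 1.63 between CCl4+Rot and CCl4 (unadjusted p = 0.0308, adjusted p = 0.747). Leaving out 1 array at a time, the first ran from -2.37 to -1.46 and the second from 1.18 to 2.18. Reg3g, a secreted lectin, had an unadjusted p of 0.0162 for its log2 change of 3.26 but was called present on 2 arrays.

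Of 33 further negative acute-phase and secreted plasma proteins, 29 were measured. Between CCl4 and vehicle 26 of the 29 were lower, with a median log2 change of -0.24, and between CCl4+Rot and CCl4 26 were higher, with a median of 0.19. These comparisons share the CCl4 rats, and 0 genes were called by limma in either. At an unadjusted p below 0.05, 7 were lower and 1 higher with CCl4, against 4.01% and 9.49% of all genes, and 2 were higher with CCl4+Rot than with CCl4, against 2.1%. The list is brighter than most genes, with a mean signal of 13.77 to 13.83 in vehicle rats. Of the 973 probe sets with a mean log2 signal of 12 to 14, 122 were lower and 34 higher with CCl4 at that p. Of the 200 over 14, 21 were lower and 0 higher. Without CCl4 replicate 3, 4 of the 29 genes were lower and 1 higher with CCl4 at that p. In sign alone, 24 were then lower (median -0.13) and 25 higher (median 0.09). After quantile normalization, 23 were lower (median -0.06) and 21 higher (median 0.04). The hepatocyte markers had differences of the same signs. All 13 were lower with CCl4 (median -0.33) and 13 higher with CCl4+Rot than with CCl4 (median 0.21), and without CCl4 replicate 3 the counts were 12 (median -0.17) and 9 (median 0.03). Their mean signal was 14.07 to 14.20 in vehicle rats, 13.19 to 13.93 in CCl4 rats and 13.73 to 14.03 in CCl4+Rot rats. The part of the hepatocyte share in the plasma protein values was not tested.

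From this list, 6 genes were selected by the naming rule for CCl4 against vehicle. Serpina7, thyroxine-binding globulin, gave 8.15, 7.65 and 6.81 in vehicle rats, 11.97, 11.38 and 9.64 in CCl4 rats, and 10.98, 9.54 and 11.67 in CCl4+Rot rats. Every rat given CCl4 lay above every vehicle rat, as for A2m, Lbp and Lcn2. The log2 change was 3.46, or 11.0-fold (1.71 to 5.21, limma adjusted p = 0.218), and -0.26 between CCl4+Rot and CCl4. The others were lower with CCl4. Apoa4, an apolipoprotein of lipid transport, had a log2 change of -1.99 (adjusted p = 0.251). Paqr9, a membrane receptor protein that stood on the list although it is not secreted, had -1.55 (adjusted p = 0.368). Without Paqr9, 25 of the other 28 genes were lower with CCl4 and 25 higher with CCl4+Rot than with CCl4. Igfals, the acid-labile subunit of the circulating IGF complex, had -1.0 (adjusted p = 0.239). Serpina4, kallistatin, had -0.91 (adjusted p = 0.274), and the coagulation factor F12 had -0.48 (adjusted p = 0.311). Paqr9 and Igfals were also selected between CCl4+Rot and CCl4, where they were higher by 1.72 and 0.67 (adjusted p = 0.724 and 0.736).

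The signals that drive the response were read next. Of 35 upstream genes, 34 were measured, and 6 of them were absent on all 9 arrays: the cytokines Il6, Osm, Lif and Il11, the receptor Lifr and the inhibitor Socs1. Limma called 0 of the 34, and at an unadjusted p below 0.05 between CCl4 and vehicle 3 were higher and 4 lower, against 9.49% and 4.01% of all genes. Stat3, the factor downstream of interleukin-6, gave 8.27, 8.23 and 8.46 in vehicle rats, 9.35, 9.25 and 9.85 in CCl4 rats, and 8.53, 8.82 and 9.12 in CCl4+Rot rats. On this probe set the 3 groups did not overlap. The log2 change was 1.17 between CCl4 and vehicle (0.63 to 1.70, adjusted p = 0.202) and -0.66 between CCl4+Rot and CCl4 (-1.20 to -0.12, adjusted p = 0.724). The second Stat3 probe set gave 0.70 and -0.73, and between CCl4+Rot and vehicle it gave -0.03 where the first gave 0.50. Without CCl4 replicate 3, the first probe set gave 0.99 between CCl4 and vehicle and -0.48 between CCl4+Rot and CCl4 (limma, unadjusted p = 0.00252 and 0.0554). For A2m, Lbp and Lcn2, the changes between CCl4+Rot and CCl4 were -0.37, -0.15 and -0.52, with groups that overlapped, and without CCl4 replicate 3 they were -0.087, -0.082 and -0.28.

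The interleukin-6 receptor Il6r differed the other way from Stat3. It gave 11.47, 11.83 and 11.88 in vehicle rats, 10.94, 11.18 and 10.73 in CCl4 rats, and 11.30, 11.14 and 10.95 in CCl4+Rot rats, a log2 change of -0.78 between CCl4 and vehicle (limma adjusted p = 0.249). Cebpa, a factor of mature hepatocytes, gave 12.37, 12.08 and 12.28 with vehicle, 11.45, 11.26 and 11.92 with CCl4, and 12.62, 12.47 and 12.49 with CCl4+Rot. Its log2 changes were -0.70 between CCl4 and vehicle (adjusted p = 0.280) and 0.98 between CCl4+Rot and CCl4 (adjusted p = 0.608), and the other 4 probe sets of Cebpa had the same signs. Nr3c1, the glucocorticoid receptor, had -0.77 and 0.62 (adjusted p = 0.261 and 0.724). Onecut1, a liver-enriched factor, was 5.66-fold higher with CCl4+Rot than with CCl4 (adjusted p = 0.650). Cebpb and Cebpd, the C/EBP factors of the acute phase, were named after their values were seen and had log2 changes of -0.11 and 0.16 between CCl4 and vehicle.

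**Figure D4:**
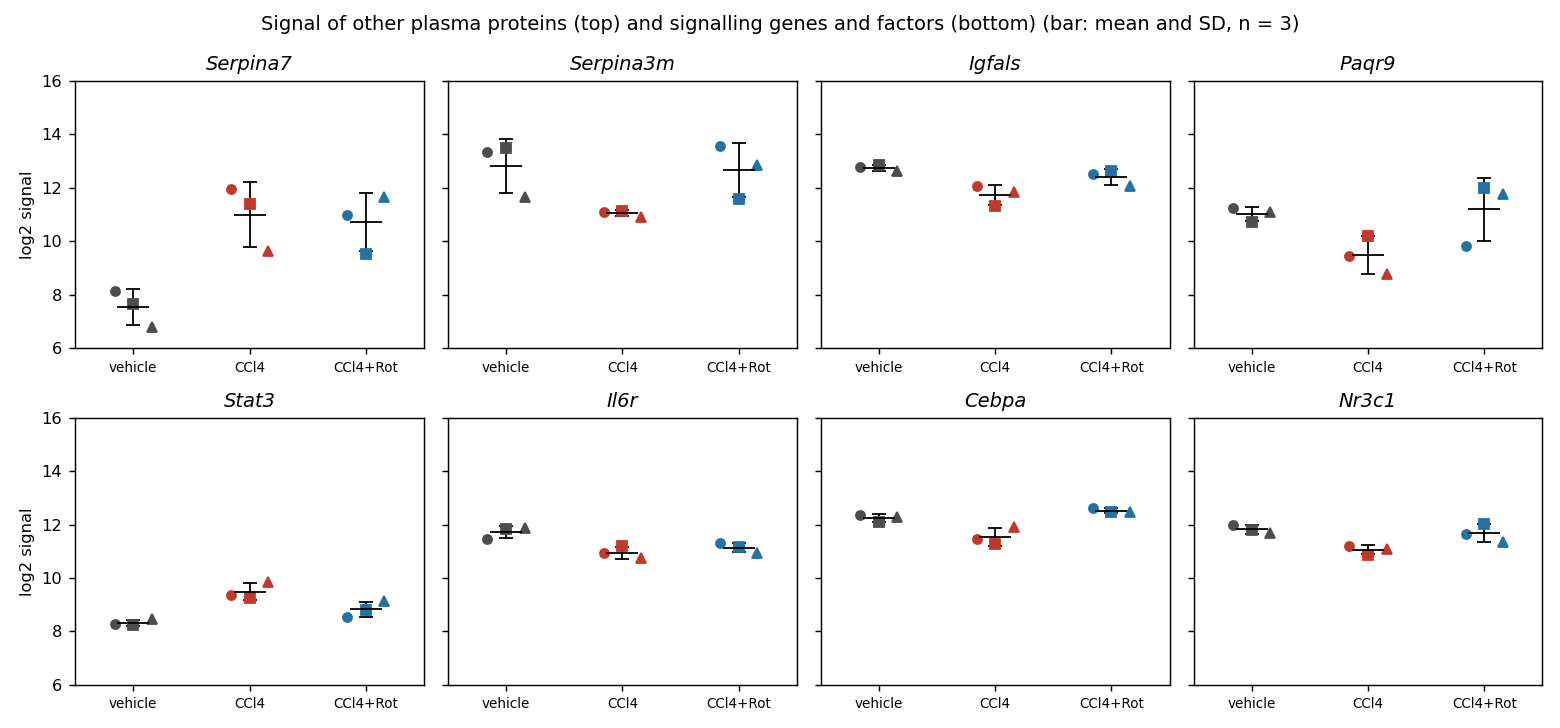
Log2 signal on each array (y axis) by group (x axis, n = 3) for 4 other plasma protein genes (top) and 4 signalling genes or factors (bottom), with points for single rats in rising order of the animal number (circle, square, triangle) and bars for mean and SD. Serpina7 is higher in every CCl4 and CCl4+Rot rat than in the vehicle rats, Stat3 has 3 groups without overlap, and Cebpa is lowest in the CCl4 group.

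The receptors and partners of the 10 proteins were the last list. Of 16 genes, 12 were measured and 0 were called. At an unadjusted limma p below 0.05, 4 were higher with CCl4 than with vehicle, against 9.49% of all genes. Hmox1, heme oxygenase, which degrades the heme that Hpx and Hp bring in, had a log2 change of 0.97 (adjusted p = 0.260). Lrp2, a receptor that takes up Lcn2, had 0.70 (adjusted p = 0.280). Ly96, the TLR4 partner that senses lipopolysaccharide delivered by Lbp, had 0.65 (adjusted p = 0.324). Mmp9, which forms a complex with lipocalin 2, was called present on 2 arrays. The lipopolysaccharide receptor Cd14 and the haptoglobin receptor Cd163 were named after their values were seen and had 0.19 and -0.02. None of the 12 had an unadjusted p below 0.05 between CCl4+Rot and CCl4, where 2.1% of all genes were higher and 3.4% lower.

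Markers of other cell types were read because Lcn2 is also a neutrophil gene and Lbp and A2m can be made outside hepatocytes. Of 10 neutrophil markers measured, 4 (Camp, Cxcr2, Np4 and Defa5) were absent on all arrays, and only 3 were called present on at least 3 arrays. The mean of the 10, taken largely over genes with few or no present calls, was 4.22 to 5.09 in vehicle rats, 4.38 to 6.53 in CCl4 rats and 5.98 to 7.31 in CCl4+Rot rats. Mmp8, the neutrophil collagenase and the one neutrophil marker selected by the naming rule, gave 4.97, 5.79 and 5.26 with vehicle, 5.98, 6.67 and 7.79 with CCl4, and 5.40, 6.57 and 5.67 with CCl4+Rot. It was called present on 3 arrays, none of them of the vehicle group, and its log2 changes were 1.47 between CCl4 and vehicle and -0.93 between CCl4+Rot and CCl4 (limma adjusted p = 0.330 and 0.765). Its highest signal, on CCl4 replicate 3, was called absent, and without that array the changes were 0.98 and -0.44. Most of the list differed the other way from Mmp8 in the second comparison. There, 8 of the 10 markers were higher with CCl4+Rot and 2 lower (median log2 change 1.26), and all 10 were higher with CCl4+Rot than with vehicle (median 1.84). S100a8, a calprotectin subunit named after its values were seen, gave 8.32, 5.38 and 5.44 with vehicle, 7.07, 8.18 and 7.69 with CCl4, and 8.43, 9.29 and 8.89 with CCl4+Rot. Within the CCl4 group S100a8 ranked the rats as Lcn2 did, and within the CCl4+Rot group it was highest in replicate 5, where Lcn2 was lowest. Mean macrophage marker signal was 10.83 to 11.33, 11.16 to 11.53 and 11.44 to 11.82 in the 3 groups. The 12 stellate cell and myofibroblast markers were 8.76 to 9.15 in vehicle rats, 9.64 to 10.25 in CCl4 rats and 10.11 to 10.33 in CCl4+Rot rats. At an unadjusted limma p below 0.05, 7 of the 12 were higher with CCl4 than with vehicle (median log2 change 0.89), against 9.49% of all genes. At that p, 1 of the 10 neutrophil, 2 of the 10 macrophage and 2 of the 9 cholangiocyte markers were higher. The 9 cholangiocyte markers measured, 4 of them absent on all arrays, were 5.35 to 5.95, 6.17 to 6.60 and 5.81 to 6.32. None of these marker genes was called, and the part of these cell types in the values of A2m, Lbp and Lcn2 was not tested.

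Among the marker genes selected by the naming rule, Timp1, an inhibitor of matrix proteases, was higher with CCl4 by 1.60 on the log2 scale, and the collagen genes Col1a1, Col1a2 and Col3a1 by 2.29, 1.81 and 1.17. Lyz2, the macrophage lysozyme, was higher by 1.22 and the macrophage marker Cd68 by 0.68. Of the 10 macrophage markers, 6 were higher and 4 lower with CCl4 than with vehicle, with a median log2 change of 0.16. Clec4f, the macrophage marker selected between CCl4+Rot and CCl4, had 0.56 there and -0.45 between CCl4 and vehicle (limma adjusted p = 0.724 and 0.409). Sds, a periportal hepatocyte enzyme, gave 13.66, 13.61 and 13.61 in vehicle rats, 12.17, 12.48 and 10.26 in CCl4 rats, and 13.40, 13.50 and 11.68 in CCl4+Rot rats, a log2 change of -1.99 between CCl4 and vehicle (limma adjusted p = 0.322). CCl4+Rot replicate 6, highest of its group for 9 of the 10 genes, was the lowest of its group for Sds.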

How the data were processed

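Biotin-labelled cRNA from rat liver was hybridised to Affymetrix rat expression arrays, 1 per rat, with 3 rats in each of the 3 groups (vehicle, CCl4 and CCl4+Rot), assigned from the sample titles. What the authors deposited is 1 table of log2 signals and detection calls for 31099 probe sets. The submitters' processing notes name MAS5 and affy, without versions. With 2% trimmed at each end, the antilogs average 500 on each array, and the genome build is not given in the sources used here. Precision is limited by the number of arrays. Each limma p-value sets a difference of group means against the spread between rats within groups, estimated with help from all probe sets.

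The deposited log2 values were used as they are. After 57 control probe sets were left out, limma 3.58.1 (R 4.3.3) estimated the 3 group means for 31042 probe sets without covariates, and Benjamini-Hochberg adjustment of the p-values covered all of them. A call needed an adjusted p below 0.05 and 1.5-fold, the fold threshold of the methods, which name no test for the arrays. The fit was run on simulated data with independent normal noise and no array that stands apart, so that run cannot speak to such an array. The 10 genes, the lists, the naming rule and the alternatives were chosen with earlier results of these data known.

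From each list, a gene was named if it was present on at least 3 arrays and had an unadjusted p below 0.05 between CCl4 and vehicle or between CCl4+Rot and CCl4, with at most 6 genes per list and comparison, each read by its brightest probe set that names it alone. Genes outside the rule are marked in the text. Motifs were searched in RefSeq promoters of build GRCr8. A gene and a motif that these choices would name are not reported here.

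The alternatives were quantile normalization, centring on the array median, leaving out the dimmest 30% of probe sets or those present on fewer than 3 arrays, array weights, trend and robust spread (statmod 1.5.0), the 2 groups alone, the methods' t-test (named there for the study's data in general), no fold threshold, averaging the probe sets of a gene, the animal number as a block and each array left out. Chosen after seeing the data were centring on the probe sets present on all 9 arrays, the counts of unadjusted p with each array left out, the lists under other scalings, the lists and medians without CCl4 replicate 3, and a list without Paqr9.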

Additional observations from a re-analysis of the deposited data

How the results depend on the processing

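The number of the 10 genes called between CCl4 and vehicle was 0, and became 1 (A2m) under limma with trend and robust spread and 3 (A2m, Lbp and Lcn2) under the methods' t-test without adjustment, which gave 2 between CCl4+Rot and vehicle. That test called 4.07% and 4.95% of all probe sets higher in these comparisons. It was 0 under every other alternative run, with each array left out in turn, and throughout between CCl4+Rot and CCl4. With 1 array left out, the number at an unadjusted p below 0.05 was 2 to 4 between CCl4 and vehicle, 0 between CCl4+Rot and CCl4, and 2 to 3 between CCl4+Rot and vehicle. In the first comparison Lcn2 dropped out without vehicle replicate 3 or 4 or CCl4 replicate 2 or 3, and without CCl4 replicate 1 Crp was added, with a log2 change of -0.42. Animal numbers shared between groups did not pair the rats (correlations of deviations 0.020, 0.0355 and 0.0680), and with the replicate block the number called was 0 in all 3 comparisons.

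The changes of A2m, Lbp and Lcn2 against vehicle kept their sign in every alternative run. After quantile normalization, the values between CCl4 and vehicle were 0.11 for Hpx, 0.070 for Itih4, 0.044 for Alb and 0.11 for Ttr, and between CCl4+Rot and CCl4 -0.092 for Orm1, -0.014 for Hp, -0.023 for Hpx, -0.024 for Itih4 and -0.050 for Ttr. Centring on the array median shifted every gene by -0.36 between CCl4 and vehicle, 0.25 between CCl4+Rot and CCl4 and -0.11 between CCl4+Rot and vehicle. It gave -0.24 for Orm1 between CCl4 and vehicle, 0.092 for Lbp between CCl4+Rot and CCl4, and between CCl4+Rot and vehicle -0.050 for Hpx, -0.084 for Itih4 and -0.079 for Ttr. Centring on probe sets present on all 9 arrays gave -0.010 for Itih4 and -0.0052 for Ttr between CCl4+Rot and vehicle. Array weights, 0.193 for CCl4 replicate 3, gave 0.11 for Alb and 0.035 for Ttr between CCl4 and vehicle and -0.014 for Ttr between CCl4+Rot and CCl4. The mean of its probe sets gave -0.049 for Ttr between CCl4+Rot and vehicle.

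With 1 array left out, the values between CCl4 and vehicle ran from -0.32 to 0.031 for Hp, -0.22 to 0.033 for Hpx, -0.33 to 0.20 for Alb and -0.21 to 0.079 for Ttr. Between CCl4+Rot and CCl4 they ran from -0.047 to 0.30 for Hp, -0.48 to 0.23 for Lbp, -1.31 to 0.095 for Lcn2, -0.064 to 0.21 for Orm1, -0.057 to 0.47 for Alb and -0.047 to 0.24 for Ttr. Between CCl4+Rot and vehicle they ran from -0.093 to 0.072 for Hp, -0.029 to 0.12 for Hpx, -0.032 to 0.057 for Itih4 and -0.026 to 0.10 for Ttr. Against vehicle, Lcn2 ran from 1.01 to 2.42 with CCl4+Rot, and A2m between CCl4+Rot and CCl4 from -0.82 to -0.087. The cause of these turns was not tested, apart from the shift that centring applies to every gene.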
